A study of Mus musculus with 4 samples.

Results

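PD1+ CD4 T cells of AKP colorectal tumors are the 616 tumor cells, of 8466 labelled tumor cells, that carry the label PD1+ CD4 in the annotation deposited by the authors. A further 14 of the 7155 labelled cells of the adjacent cecum carried the label, 630 of 15621 labelled cells in all. Labels were made from clusters of the RNA of the same nuclei, among cells that had also passed the authors' filters on ATAC fragments and on enrichment at gene starts, so that depth and the share near starts are bounded by those filters. AKP organoids, a cancer line with engineered mutations that was derived from female mice, were transplanted into the cecal wall of C57BL/6J mice. T cells were sorted from tumor and from tumor-free cecum 4 weeks later, and open chromatin was read by single-cell ATAC, in which a transposase cuts accessible DNA and each pair of cuts yields 1 fragment. There was 1 library per tissue, neither labels nor methods give the number of mice pooled in it, and no test between labels or tissues was possible. Tissue and library cannot be told apart. All intervals are exact 95% intervals that cover counting error only, not differences between animals.

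PD-1, encoded by Pdcd1, is an inhibitory receptor that T cells display after antigen recognition and keep under persistent stimulation. Type 1 helper (Th1) CD4 T cells are specified by the transcription factor T-bet, encoded by Tbx21, and secrete the cytokine IFN-γ, encoded by Ifng, which activates macrophages and raises antigen presentation. In tumors, chronically stimulated T cells gain further inhibitory receptors such as TIM-3 (Havcr2) and LAG-3 and the nuclear factor TOX, a state often called exhaustion. The labels closest to the PD1+ CD4 cells by name or lineage, and used as comparators, were newly activated CD4 (523 tumor cells), Mucosal Th1 (196), Tfh-like (89) and PD1+ CD8 (1180). Tfh-like stands for follicular helper T cells, which help B cells. These names are those of the annotation.

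PD1+ CD4 cells made up 7.28% of labelled tumor cells (95% interval 6.73 to 7.85) and 0.196% of labelled cecum cells (0.107 to 0.328). Among the cells with one of the 9 CD4 labels the shares were 20.1% (tumor) and 0.456% (cecum). The tumor library held 96747563 fragments, 64.2% of them in labelled cells, and the cecum library 66466111 fragments, 66.2% in labelled cells. PD1+ CD4 cells of the tumor held 6143256 fragments. Their median of 9642.5 fragments per cell was the highest of the 17 tumor labels, the others lying between 3898.5 and 6911, and 97 of the 616 cells (15.7%) exceeded 3 times the tumor median. The share of their fragments within 1 kb of a gene start (of either gene end where no start was given), 43.0%, was the lowest of the 17 labels, against 45.3% to 50.9% in the others. In cells of 5000 to 10000 fragments it was 46.4%, also the lowest. Doublets were not called, and 3 PD1+ CD4 tumor cells had a barcode that also occurred among labelled cecum cells. The part of depth or doublets in the results was not tested. Values without the cells of high count, or in cells thinned to 1 depth, stand beside some of the results only.

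The label was checked at 4 marker genes, Cd4, Pdcd1, Tbx21 and Ifng. Accessibility was counted over the gene span with 5 kb on both sides and scaled per 1000000 fragments of the label (FPM). Pdcd1 reached 230 FPM (218 to 242) in PD1+ CD4 cells, rank 2 of the 17 tumor labels after Rorgt gdT (241), γδ T cells named for the type 17 factor RORγt. The comparators had 167 (newly activated CD4), 153 (Mucosal Th1), 191 (Tfh-like) and 180 (PD1+ CD8). Tbx21 was at 151 FPM (141 to 161), next to Cytotoxic CD8 at 156 and CD8aa at 149, which both lay within its interval. Mucosal Th1 had 124, newly activated CD4 93.8, Tfh-like 71.3 and PD1+ CD8 141. Thus the PD1+ CD4 cells had the most accessible Tbx21 of the 9 CD4 labels, though the interval of Mucosal Th1 (105 to 144) overlapped theirs.

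Ifng was at 40.04 FPM (35.2 to 45.4), rank 6 of the 17 labels. It was above newly activated CD4 (28.0) and Tfh-like (19.6), near Mucosal Th1 (44.0) and below PD1+ CD8 (53.6). Cd4, the coreceptor that defines the lineage, was at 77.2 FPM (70.4 to 84.4), between Tfh-like (74.9) and newly activated CD4 (82.7), below Mucosal Th1 (99.6, the highest of the 17 labels) and above PD1+ CD8 (44.2). The log2 ratio of Cd4 to Mucosal Th1 was -0.37 (-0.65 to -0.076). Zbtb7b, which encodes the CD4 lineage factor ThPOK, was at 125 FPM against 90.8 in PD1+ CD8. Of the 4 genes the label was named or chosen for, Pdcd1 and Tbx21 thus had rank 2 of the 17 labels, and Cd4 and Ifng rank 6. Neither Cd4 nor Ifng stood above that of Mucosal Th1.

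**Figure D1:**
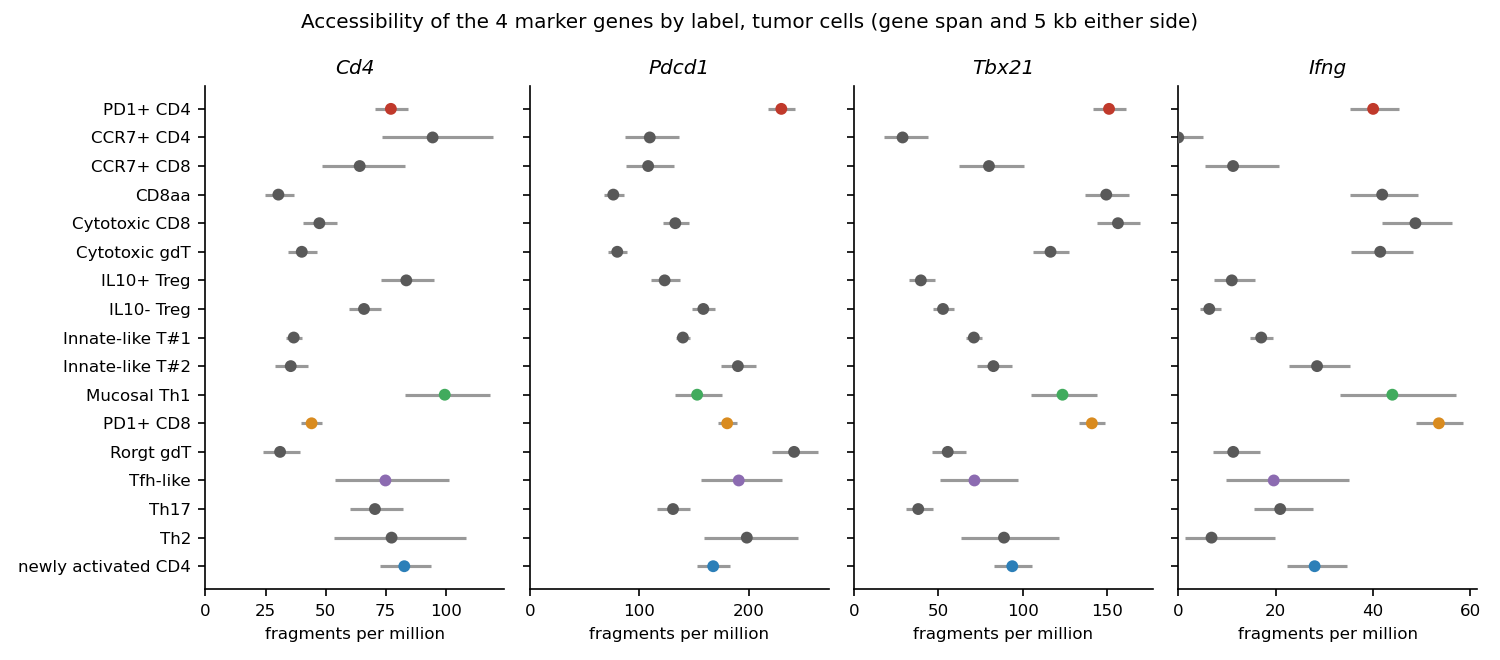
FPM in the windows of Cd4, Pdcd1, Tbx21 and Ifng for the 17 labels of the tumor, with points for the label total and lines for the exact 95% interval of the count. PD1+ CD4 (top row, red) has rank 2 of 17 for Pdcd1 and Tbx21 and rank 6 for Cd4 and Ifng.

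Genes of other T cell lineages were checked in the same way. Trdc, the constant gene of the γδ receptor, had 1.30 FPM in PD1+ CD4 cells against 68.0 in Cytotoxic gdT. Foxp3, the regulatory T cell (Treg) factor, had 26.04 FPM, rank 13 of 17, against 79.2 in IL10+ Treg. The CD8 genes were not at 0. Cd8a had 22.3 FPM (18.7 to 26.4) and Cd8b1 25.4 FPM (21.6 to 29.7) in PD1+ CD4 cells, the highest of the 9 CD4 labels for both genes. Newly activated CD4 had 17.01 and 17.35, Mucosal Th1 6.18 and 10.0, and PD1+ CD8 89.96 and 102.1. The log2 ratio of Cd8b1 to newly activated CD4 was 0.55 (0.088 to 1.03), while CCR7+ CD4 cells had 24.7 FPM at Cd8b1, within the interval of PD1+ CD4. Of cells thinned to 2000 fragments, 4.62% of PD1+ CD4 cells had a fragment in Cd8a, and 4.73% did so without the cells of high count, against 17.2% of PD1+ CD8 cells. Cells of other tissues were looked for through summed windows. The 6 B cell genes summed to 150 FPM, within the 140 to 200 of the 4 comparators, the 6 myeloid genes to 179 FPM, below their 188 to 249, and the 10 epithelial genes to 134 FPM, within their 96.3 to 162. Cd79a, Cd68 and Cdh1 gave most of these sums. Adgre1, which encodes the macrophage antigen F4/80, went the other way from the myeloid sum, at 10.4 FPM (64 fragments), the highest of the 17 labels, with Cytotoxic gdT next at 7.63, and its ratio of FPM + 1 passed 1.5-fold against each of the 4 comparators. None of the genes of these lists was at 0 in PD1+ CD4 cells, the macrophage gene Lyz2 being the lowest at 0.651 FPM, and the part of such cells in the results was not tested.

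The 4 marker genes were open in a varying share of single cells. Counting was done on 520 PD1+ CD4 cells thinned to 2000 fragments each, and 96 shallower cells were left out. Pdcd1 held a fragment in 36.9% of them (32.8 to 41.2), below Rorgt gdT at 42.4% and against 26.7% of newly activated CD4, 26.4% of Mucosal Th1, 31.0% of Tfh-like, 30.3% of PD1+ CD8 and 32.4% of Innate-like T#2 cells. Without thinning the share was 71.4%. For Tbx21 it was 26.7% (23.0 to 30.8), the highest share of the 17 labels, but PD1+ CD8 at 25.9% lay within the interval. Havcr2 was open in 20.6% (17.2 to 24.3), against 11.2% of newly activated CD4 and 8.11% of Mucosal Th1 cells, but Cytotoxic gdT at 20.4% and IL10+ Treg at 17.4% lay within the interval. Ifng was found in 6.54% of PD1+ CD4 cells (4.57 to 9.02), 10.1% of Mucosal Th1 (5.78 to 16.2) and 11.3% of PD1+ CD8 cells, and Cd4 in 14.4% of PD1+ CD4 (11.5 to 17.7) and 8.35% of PD1+ CD8 cells. Mucosal Th1 at 16.9% and newly activated CD4 at 16.3% lay within the interval for Cd4. As a level of background, Rorgt gdT cells, which should lack Cd4, held a Cd4 fragment in 6.49% of cells. The median depths before thinning were 10929 fragments in PD1+ CD4 and 7733 in Rorgt gdT cells.

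Promoters are printed for the 3 marker genes Pdcd1, Tbx21 and Ifng and for Fam20c, Kcnk10 and Cx3cl1, which were among the genes of largest difference described further on, because the contrast between both sets carries much of what follows. Each runs from 250 bases before the RefSeq start to 50 bases after it on GRCm38.p6, 5′ to 3′ on the strand of the gene, and capitals mark matches of the GC box (GGGCGG on either strand). The motifs searched on both strands were AP-1 (TGANTCA), a T-box motif (GGTGTGA), Runx (TGTGGTT), NFAT (GGAAAA), a nuclear receptor site (AAGGTCA) and the GC box. No motif contains another, but matches can overlap, as the 3 of Tbx21 do. The GC box alone matched in these windows, in all but that of Ifng, and the others are only not spelled in these bases.
Pdcd1, chr1:94052504-94052803, minus strand: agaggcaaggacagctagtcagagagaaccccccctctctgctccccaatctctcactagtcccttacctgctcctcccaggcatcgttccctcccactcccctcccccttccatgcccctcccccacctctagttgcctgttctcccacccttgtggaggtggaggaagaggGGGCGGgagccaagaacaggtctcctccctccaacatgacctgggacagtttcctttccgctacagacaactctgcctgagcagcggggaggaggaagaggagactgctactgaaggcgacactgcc
Tbx21, chr11:97115282-97115581, minus strand: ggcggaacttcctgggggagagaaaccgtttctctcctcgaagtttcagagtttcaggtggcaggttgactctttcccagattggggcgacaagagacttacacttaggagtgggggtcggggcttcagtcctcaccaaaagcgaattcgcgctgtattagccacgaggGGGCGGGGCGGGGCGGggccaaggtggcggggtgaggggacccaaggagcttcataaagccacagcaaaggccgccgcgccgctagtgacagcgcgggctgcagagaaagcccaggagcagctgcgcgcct
Ifng, chr10:118440796-118441095, plus strand: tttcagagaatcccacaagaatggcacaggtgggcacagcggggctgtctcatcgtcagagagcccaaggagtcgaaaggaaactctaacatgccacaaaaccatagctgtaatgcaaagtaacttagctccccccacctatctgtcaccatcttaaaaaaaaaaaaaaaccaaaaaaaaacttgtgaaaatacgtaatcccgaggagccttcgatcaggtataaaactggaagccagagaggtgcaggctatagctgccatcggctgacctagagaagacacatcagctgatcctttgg
Fam20c, chr5:138754831-138755130, plus strand: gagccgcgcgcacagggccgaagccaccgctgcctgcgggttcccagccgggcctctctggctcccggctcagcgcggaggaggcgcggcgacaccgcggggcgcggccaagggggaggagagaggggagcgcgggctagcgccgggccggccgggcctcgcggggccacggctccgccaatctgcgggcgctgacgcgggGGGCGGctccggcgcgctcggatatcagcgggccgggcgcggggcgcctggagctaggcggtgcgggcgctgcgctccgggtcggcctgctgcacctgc
Kcnk10, chr12:98578164-98578463, minus strand: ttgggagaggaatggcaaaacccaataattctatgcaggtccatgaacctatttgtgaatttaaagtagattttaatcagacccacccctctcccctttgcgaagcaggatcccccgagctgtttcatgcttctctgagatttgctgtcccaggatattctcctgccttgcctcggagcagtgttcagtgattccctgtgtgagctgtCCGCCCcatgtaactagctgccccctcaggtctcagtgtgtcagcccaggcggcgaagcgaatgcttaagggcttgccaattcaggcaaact
Cx3cl1, chr8:94771930-94772229, plus strand: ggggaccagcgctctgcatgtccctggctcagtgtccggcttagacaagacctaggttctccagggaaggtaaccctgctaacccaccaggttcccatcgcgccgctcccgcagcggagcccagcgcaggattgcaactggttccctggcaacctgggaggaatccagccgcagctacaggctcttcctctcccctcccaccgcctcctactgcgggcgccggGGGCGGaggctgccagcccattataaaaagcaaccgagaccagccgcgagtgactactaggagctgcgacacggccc

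The promoters of the marker genes were open in the comparators too. The Pdcd1 promoter had 71 fragments, or 11.6 FPM, against 5.67 in newly activated CD4, 5.40 in Mucosal Th1, 14.3 in Tfh-like and 13.9 in PD1+ CD8. The Tbx21 promoter had 8.79 FPM against 7.34, 8.49, 8.92 and 10.4 in the same order, all inside the interval of PD1+ CD4 (6.60 to 11.5). At the Ifng promoter PD1+ CD4 cells had 17.9 FPM, newly activated CD4 14.0, Mucosal Th1 24.7, Tfh-like 12.5 and PD1+ CD8 28.2. By contrast, the Fam20c promoter, which has 47 CpG dinucleotides in 300 bases, had 63 fragments in PD1+ CD4 cells, 0 in newly activated CD4, Mucosal Th1 and Tfh-like, and 2 in PD1+ CD8 cells. The next label, Th17, had 1.28 FPM there against 10.3. The Kcnk10 promoter printed, the more open of 2, had 73 fragments (11.9 FPM), with 2, 0, 5 and 11 fragments in the comparators, of which the 5 of Tfh-like correspond to 8.92 FPM. The other Kcnk10 promoter (chr12:98575078-98575377) had 24 fragments (3.91 FPM) against 1, 2, 0 and 5, with Innate-like T#1 next at 2.72 FPM. The Cx3cl1 promoter had 24 fragments (3.91 FPM) against 1, 0, 1 and 3, and IL10- Treg followed with 3.45 FPM. Fam20c, Kcnk10 and Cx3cl1 were picked for high ratios to 3 of these labels, so low counts there are largely set by the choice. Other genes of largest difference had little signal at their starts. Within 1 kb, PD1+ CD4 cells had 1 fragment at Acot12, 6 at Nr5a2, 7 at F13a1 and 10 at Ceacam15. Fam20c had 120 there, Kcnk10 252, Tff1 290, Cx3cl1 51 and Krt17 40.

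Across genes, the PD1+ CD4 cells had more genes of higher than of lower accessibility against the CD4 comparators. A gene was called where the ratio of FPM + 1 passed 1.5-fold, over genes with at least 50 fragments in both labels together. PD1+ CD4 cells held more fragments than each CD4 comparator, so genes high only in a comparator passed this minimum less often. The part of the minimum in the surplus of higher genes was not tested, and counts with no minimum are given further on. Against newly activated CD4, 1339 of 14958 genes were higher (8.95%) and 583 lower (3.90%). Against Mucosal Th1, 1351 of 14589 were higher (9.26%) and 614 lower (4.21%). Tfh-like gave 1850 higher (12.9%) and 1190 lower (8.27%) of 14392, and PD1+ CD8 gave 1120 higher (7.0%) and 1068 lower (6.68%) of 15997. All other tumor labels pooled gave 978 higher (5.48%) and 1017 lower (5.69%) of 17859. Leaving out the cells of high count gave 1159 higher and 588 lower against newly activated CD4, and 1129 and 624 against Mucosal Th1. It gave 1609 and 1166 against Tfh-like, 1076 and 1067 against PD1+ CD8, and 957 and 1259 against all other labels pooled. With no minimum, 2066 were higher and 1255 lower against newly activated CD4, 2391 and 1911 against Mucosal Th1, 3715 and 2206 against Tfh-like. The median log2 ratio over all genes lay at -0.09 against newly activated CD4, Tfh-like and PD1+ CD8 and at -0.07 against Mucosal Th1. When labels were scaled by their fragments near gene starts instead of all fragments, the 4 medians moved up by 0.20, 0.14, 0.21 and 0.09 (newly activated CD4, Mucosal Th1, Tfh-like and PD1+ CD8), and the share of higher calls among all calls went from 69.7% to 88.7%, from 68.8% to 85.7%, from 60.9% to 83.6% and from 51.2% to 62.3%. In windows within 1 kb of the gene start it was 45.5%, 52.5%, 38.6% and 52.5%, so that at gene starts lower calls outnumbered higher ones against newly activated CD4 and Tfh-like. In 571 of the 14587 genes testable against newly activated CD4, Mucosal Th1 and PD1+ CD8 (3.91%) the PD1+ CD4 cells were higher than all 3, and in 129 (0.884%) lower than all 3. This count rests on the same minimum. Tfh-like was left out of the count for its few cells, and its values are given beside.

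The 10 genes with the largest differences are described one by one. They were ranked by the smallest of the 3 log2 ratios, which makes all of them high by construction, and their order carries no test. Krt17, a keratin of epithelia, had 24.6 FPM in PD1+ CD4 cells and 0.667, 0.772, 3.57 and 0.984 in newly activated CD4, Mucosal Th1, Tfh-like and PD1+ CD8. The smallest log2 ratio, Tfh-like apart, was 3.69, and the next label, Th2, had 4.56 FPM. The Krt17 window overlaps those of its neighbours Krt16 and Krt42. Tff1, a secreted trefoil peptide of gastric mucosa, was at 83.5 FPM against 5.67, 7.72, 10.7 and 7.21, but Th17 cells had 54.7. Cx3cl1, the chemokine fractalkine, was at 74.7 FPM against 7.01, 4.63, 7.13 and 6.34, with IL10- Treg next at 37.6. Fam20c, a secretory pathway kinase, had 32.4 FPM against 1.33, 1.54, 0 and 2.73, and no other label exceeded the 6.20 of Cytotoxic gdT.

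Further genes of this group were often shared with Treg labels. Acot12, an acyl-CoA thioesterase, was at 53.6 FPM, slightly below IL10- Treg (54.9), and Ceacam15 at 24.4, below IL10- Treg at 29.3. Kcnk10, a potassium channel, was at 92.5 FPM against 52.8 in IL10+ Treg. F13a1, the A subunit of coagulation factor XIII, was at 135 against 93.9 in IL10- Treg, and the nuclear receptor Nr5a2 at 41.5 against 22.6. Penk, which encodes proenkephalin, had 20.2 FPM against 12.1. For 7 of these 10 genes the highest other label was a Treg label. Over all 14587 genes tested a Treg label was the highest other label in 8.97%, and over the 571 genes higher than all 3 comparators in 34.3% (196 genes). By label, IL10- Treg went from 4.11% to 24.3%, Rorgt gdT from 5.03% to 13.3% and IL10+ Treg from 4.86% to 9.98%. Newly activated CD4, Mucosal Th1 and PD1+ CD8 were the highest other label in 3.17%, 4.99% and 3.06% of all genes tested. The choice of the 571 genes keeps these 3 labels low, so part of the rise of the others is set by it. PD1+ CD4 cells were themselves the highest of the 17 labels at 51.3% of the 571 genes, which the choice of these genes largely fixes. Over all genes tested they were the highest at 4.76%.

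The 10 epithelial marker genes were looked at beside Krt17 and Tff1. Among the 17 labels, PD1+ CD4 cells had rank 16 for Epcam (10.4 FPM), 13 for Cdh1, 12 for Krt8 (2.28 FPM) and 11 for Krt18, but rank 2 for Krt19 (0.977 FPM) and Muc2 (4.72 FPM), 3 for Krt20 (3.26 FPM) and Vil1 (22.8 FPM), and 5 for Cdx2 and Lgr5. Of those past the minimum, 2 of 4 were higher and 0 lower than in newly activated CD4 and in Tfh-like, 1 of 4 higher and 1 lower than in Mucosal Th1, and 2 of 9 higher and 1 lower than in PD1+ CD8. PD1+ CD4 cells held more fragments than the CD4 comparators, so low genes passed the minimum there mainly when high in PD1+ CD4 cells. The part of this in the counts was not tested. Over all genes 8.95%, 9.26%, 12.9% and 7.0% were higher than in newly activated CD4, Mucosal Th1, Tfh-like and PD1+ CD8. In the same order 3.90%, 4.21%, 8.27% and 6.68% were lower. The part of epithelial cells in these values was not tested.

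Single cells with a fragment in these windows were counted without thinning, in the label of highest depth, and no comparator value stands beside them. The F13a1 and Kcnk10 windows were 193 and 159 kb long. Of the 616 PD1+ CD4 cells, unthinned, 45.9% had a fragment at Tff1, 42.7% at Kcnk10, 40.7% at Cx3cl1, 54.9% at F13a1, 19.8% at Fam20c and 15.1% at Krt17. No cell held more than 10 fragments in any of these windows.

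The 10 genes of largest difference in the other direction included Klf3, a Krüppel-like repressor. It was at 66.4 FPM, the lowest of the 17 labels, against 165, 161, 169 and 175 in the 4 comparators. Its log2 ratio was -1.30 against newly activated CD4, -1.26 against Mucosal Th1 and -1.39 against PD1+ CD8. Gm38457 is not an independent case, as its window overlaps that of Klf3. Spsb4, an adaptor of a ubiquitin ligase, was at 4.56 FPM against 20.4, 20.1, 17.8 and 25.3, also the lowest of all. Pde2a, which degrades cyclic nucleotides, was at 74.4 FPM against 177, 161, 162 and 228. Tppp, Rab39 and Chst10 were lowest of the 17 labels too, whereas Olfr157, Gm11541 and Lair1 were not.

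A part of the type 1 genes was more open than in newly activated CD4 and Tfh-like cells, and few passed the fold against Mucosal Th1. Of 24 genes of the type 1 program, 9 were higher and 0 lower than in newly activated CD4 (median log2 ratio 0.44, against -0.09 for all genes). Over all genes the shares higher were 8.95%, 9.26%, 12.9% and 7.0% against newly activated CD4, Mucosal Th1, Tfh-like and PD1+ CD8 and those lower 3.90%, 4.21%, 8.27% and 6.68%, and the counts of each list stand against these. Against Tfh-like, 13 were higher and 0 lower (median 0.67), against Mucosal Th1 3 higher and 1 lower (median 0.23), and against PD1+ CD8 2 higher and 4 lower (median -0.19). Il18rap, a chain of the receptor for IL-18, which amplifies IFN-γ secretion, was the member higher in all comparisons. It was at 111 FPM in PD1+ CD4 cells and at 37.0, 47.9, 35.7 and 32.7 in newly activated CD4, Mucosal Th1, Tfh-like and PD1+ CD8, and the next label was IL10- Treg at 62.0. The neighbouring Il18r1, the other chain, was at 131 FPM against 131 in newly activated CD4.

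Other members of the type 1 list varied with the comparator. Ccl3, a chemokine of activated T cells, was at 11.7 FPM against 1.67 in newly activated CD4 and 16.2 in PD1+ CD8. Stat4, which transmits the IL-12 signal, was at 331 FPM, the highest of the 17 labels, but passed the fold against none of the 4 comparators. Eomes, the T-box factor of CD8 T cells, was at 37.9 FPM against 84.7 in PD1+ CD8.

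Among the inhibitory receptors, Havcr2 was the member higher in all 4 comparisons. Of the 17 genes of the list, 4 were higher and 0 lower than in newly activated CD4 (median 0.27), 5 and 0 against Mucosal Th1 (0.25), 2 and 0 against Tfh-like (0.10), and 4 and 1 against PD1+ CD8 (0.21). The 2 against Tfh-like are no larger a share than the 12.9% of all genes. Havcr2 was at 126 FPM, the highest of the 17 labels, with IL10+ Treg next at 103. The comparators had 55.7, 59.4, 33.9 and 75.4. Tox was at 359 FPM against 224 in newly activated CD4, 207 in Mucosal Th1, 332 in Tfh-like and 282 in PD1+ CD8, but IL10- Treg had 400.5. Within 1 kb of either end of Tox, whose start was not given in the promoters used here, the ratio turned, at -0.14 and -0.22 against newly activated CD4 and Mucosal Th1. Lag3 at 95.7 FPM, Ctla4 at 99.1, Tigit at 158 and Entpd1, the ectoenzyme CD39, at 186 each passed the fold against none of the 4 comparators, nor did Pdcd1 itself. Btla, a receptor for HVEM, was higher than in Mucosal Th1 and PD1+ CD8 (64.9 against 37.1 and 29.8).

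Nuclear factors downstream of the T cell receptor moved little as a group, with medians of 0.00, 0.01, 0.01 and 0.08 and 4, 4, 5 and 4 higher genes of 20, with 0 lower in each (newly activated CD4, Mucosal Th1, Tfh-like and PD1+ CD8 in order). Rel and Nfkb1, both subunits of NF-κB, were the members higher in all of them. Rel was at 204 FPM, the highest of all labels, against 129, 112, 114 and 111, and Nfkb1 at 412 against 261, 230, 223 and 216. Batf, the AP-1 partner of IRF4, was likewise highest of all labels, at 203 FPM. Its log2 ratios of 0.55, 0.57 and 0.50 against the CD4 comparators were just under the fold, and that against PD1+ CD8 was 0.94. Nr4a1, Egr3, Jun and Fos passed the fold against none of the 4 comparators.

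Some genes of other helper programs were higher too. Of 6 type 2 genes, 3 were higher than in newly activated CD4, 3 than in Mucosal Th1, 4 than in Tfh-like and 5 than in PD1+ CD8, and 0 were lower in any (medians 0.55, 0.63, 1.76 and 1.19). Within 1 kb of the gene starts the type 2 median against Tfh-like turned to -0.032. Il13, a type 2 cytokine, was at 51.9 FPM against 22.4, 17.8, 7.13 and 13.7, and Th2 cells had 82.0. The nearby Il4 had 21.7 FPM against 10.3, 8.49, 5.35 and 10.7. Gata3, the type 2 master factor, was at 210 FPM and passed the fold against none. Of the 9 type 17 genes, 5 passed the minimum against each comparator, of which 2, 2, 4 and 4 were higher and 0 lower (medians 0.39, 0.54, 0.83 and 1.23). Against the CD4 comparators, which held fewer fragments, the minimum favours genes high in PD1+ CD4 cells. Ccr6, a chemokine receptor of type 17 cells, was at 54.5 FPM, above all 4 comparators and below Th17 (97.9). The cytokine and chemokine genes Il17a (3.91 FPM), Il17f (4.07), Ccl20 (3.91) and Il22 (1.14) did not reach the minimum. These windows measure accessibility, and cytokine RNA was not analysed here.

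Treg genes split. Of the 9 genes, 3, 4 and 2 were higher than in newly activated CD4, Mucosal Th1 and Tfh-like and 4 higher than in PD1+ CD8, with 0, 0, 1 and 1 lower (medians 0.41, 0.55, -0.12 and 0.36). Scaled by fragments near gene starts, the median against Tfh-like became 0.09. Itgb8, the integrin chain that activates TGF-β, was at 78.3 FPM against 19.7, 14.7, 46.4 and 8.96, and IL10- Treg had 123. Ccr8, a chemokine receptor of tumor Tregs, was at 74.7 FPM, the highest of the 17 labels, against 35.03, 28.6, 21.4 and 15.5, and IL10- Treg had 68.6. Foxp3 (26.04) and Il10 (45.2) were not above any of the 4 comparators.

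Some of the naive, circulation and follicular genes were lower. Of 12 naive and circulation genes, 4, 4 and 4 were lower than in newly activated CD4, Mucosal Th1 and Tfh-like and 0 higher, and 5 were lower and 1 higher than in PD1+ CD8 (medians -0.34, -0.27, -0.40 and -0.39). Klf2, the factor that keeps T cells circulating, was at 53.1 FPM, the lowest of the 17 labels, against 146, 107, 125 and 108. Its target S1pr1, the receptor for exit from tissue, was also lowest, at 27.7 FPM, against 78.1 in newly activated CD4 and 54.9 in PD1+ CD8. Tcf7, which encodes the stem-like factor TCF-1, was at 130 FPM against 215, 208, 189 and 183. Follicular genes were lower most of all against Tfh-like (8 of 10 lower, 0 higher, median -1.08). Against newly activated CD4 and Mucosal Th1 4 were lower in each (medians -0.25 and -0.31), and against PD1+ CD8 3 were lower and 1 higher (-0.22). Id3, an inhibitor of E proteins, was lowest of all labels at 41.7 FPM. Il21, the cytokine of follicular helper cells, went the other way against PD1+ CD8 (31.6 against 8.20).

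Cytotoxic genes were more often higher than lower against newly activated CD4 and Tfh-like, and more often lower than higher against PD1+ CD8. Of 12, 5 were higher than in newly activated CD4 (median 0.35), 3 higher and 2 lower than in Mucosal Th1 (0.40), 9 higher than in Tfh-like (1.43), and 1 higher and 6 lower than in PD1+ CD8 (-0.54). Gzmc, a granzyme, was the gene higher in all, at 19.05 FPM against 5.34, 7.72, 1.78 and 9.07. Perforin (Prf1) was at 19.2 FPM against 81.4 in PD1+ CD8. Interferon-stimulated genes, of which 15 of 17 could be counted, had medians of -0.20, -0.44, -0.33 and -0.30, and most passed the fold in neither direction. In the same order 0, 0, 2 and 0 were higher and 2, 3, 2 and 2 lower. Under the scaling by fragments near starts the first of these medians was 0.00. Rsad2, an antiviral enzyme, was at 17.7 FPM, the lowest of the 17 labels. The 12 cell cycle genes had medians between -0.28 and -0.12 and at most 1 call in either direction.

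Costimulatory receptors and ligands differed mostly from PD1+ CD8. Of 12, 6 were higher and 1 lower than in PD1+ CD8 (median 0.58). Against newly activated CD4, Mucosal Th1 and Tfh-like 0, 2 and 2 were higher and 0, 1 and 0 lower. Tnfsf11, which encodes RANKL, was at 95.6 FPM, the highest of the 17 labels, and Tnfrsf4, which encodes OX40, at 83.0 FPM against 22.7 in PD1+ CD8. Cd40lg, the helper ligand, was at 23.9 FPM against 6.78 in PD1+ CD8 and 42.4 in Mucosal Th1. Of the effector and residency factors, 11 passed the minimum, and 2, 2, 4 and 1 were higher and 0 lower (medians 0.00, 0.13, 0.33 and 0.44). Runx2 (787 FPM), Bhlhe40 (310 FPM) and Rbpj (295 FPM) were each highest of the 17 labels, whereas Klf6 had rank 14, Prdm1 13, Ahr 11 and Id2 10. The integrins and homing receptors had medians of 0.00, -0.07, 0.44 and -0.27, and Itga4, a chain of the gut homing integrin, was at 168 FPM, the highest, while its partner Itgb7 was lowest at 65.8. The 9 cytokine receptors had medians between 0.11 and 0.24.

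**Figure D2:**
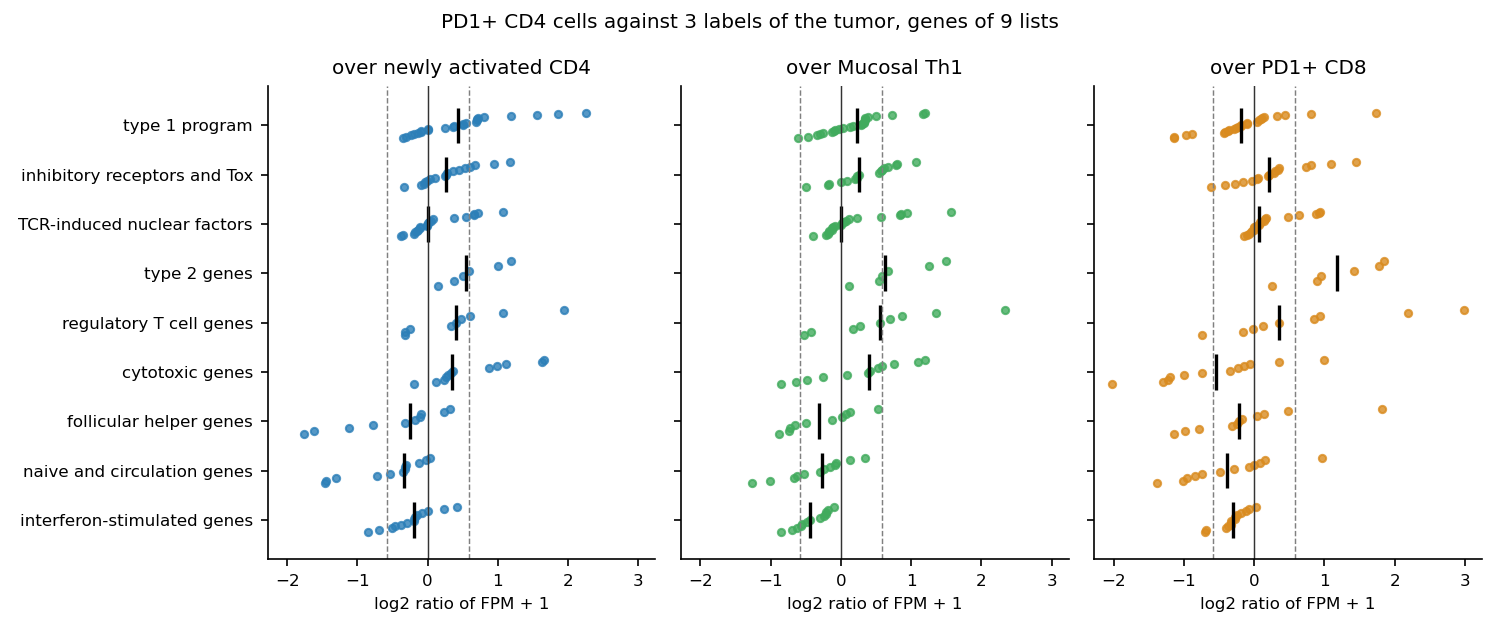
Log2 ratio of FPM + 1 of PD1+ CD4 over newly activated CD4, Mucosal Th1 and PD1+ CD8 for each gene of 9 lists, with black bars at the list median and dashed lines at 1.5-fold. The median of the type 1 genes lies to the right over newly activated CD4 (0.44) and slightly to the left over PD1+ CD8 (-0.19). The median of the naive and circulation genes lies to the left in all 3 panels (-0.34, -0.27 and -0.39).

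Within loci the differences lay in some of the tiles of 500 bp. At Pdcd1, 12 of the 29 tiles with at least 20 fragments in PD1+ CD4 cells were past 1.5-fold higher than newly activated CD4, Mucosal Th1 and PD1+ CD8 and 0 lower. Of all 73405 such tiles of the genome, 10991 (15.0%) were higher than these 3 labels and 1479 (2.01%) lower. The 20 fragments were required in the PD1+ CD4 cells, which leaves out tiles low in them, so that more higher than lower tiles follow in part from the minimum. The tile at -22.2 kb from the start (chr1:94074501-94075000, outside any gene) had 171 fragments, or 27.8 FPM. It had 7.34 FPM in newly activated CD4, 3.86 in Mucosal Th1, 1.78 in Tfh-like and 13.7 in PD1+ CD8, and Innate-like T#2 was next at 22.2. The log2 ratio was 1.92 (1.28 to 2.63) against newly activated CD4, 2.85 (1.5998 to 4.49) against Mucosal Th1 and 1.03 (0.69 to 1.37) against PD1+ CD8. The highest Pdcd1 tile, at 17.3 kb, had 47.5 FPM in PD1+ CD4 cells and between 42.8 and 58.9 in the comparators. Inside the gene, the tile at 10.3 kb had 10.4 FPM against 1.67, 0.772, 7.13 and 3.28, and Rorgt gdT had 18.8. The higher tiles described here thus lay upstream and within the gene, and the tallest tile of the locus was not among the higher ones. Positions of the remaining higher tiles are not given.

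At Tbx21, 5 of 41 tiles were higher and 0 lower, a share of higher tiles under that of the whole genome. A tile inside Tbx21, at 2.58 kb from the start, had 18.4 FPM against 7.01, 8.49, 3.57 and 8.74, and a tile at 32.1 kb, beyond the gene, 12.4 against 5.004, 2.32, 5.35 and 3.83. At Ifng, 6 of 24 tiles were higher and 1 lower. The tile at -21.8 kb from the Ifng start had 16.8 FPM in PD1+ CD4 cells, below the 36.7, 37.1, 33.9 and 28.3 of the comparators, whereas the tile at 39.7 kb had 7.16 against 3.003, 1.54, 0 and 2.62, with Innate-like T#2 next at 6.96. At Tox, 17 of 36 tiles were higher and 1 lower. A Tox tile 22.4 kb outside the gene (chr4:6663501-6664000) had 103 fragments, 16.8 FPM, against 2.67, 2.32, 5.35 and 2.08, and IL10- Treg was next at 8.44.

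Downstream of Havcr2, tiles open in PD1+ CD4 cells had few fragments in the comparators. A tile at 52.3 kb from the start (chr11:46507001-46507500, outside any gene) had 86 fragments in 71 cells (11.5%). Newly activated CD4 had 4 fragments there, Mucosal Th1 0, Tfh-like 2 and PD1+ CD8 5, the last at a log2 ratio of 4.68 (3.40 to 6.34). The 2 fragments of Tfh-like, a label of low depth, are 3.57 FPM, at a log2 ratio of 1.97 (0.076 to 5.04). IL10+ Treg had 8.06 FPM against 14.0. The tile at 55.3 kb had 56 fragments, and the comparators 1, 1, 0 and 0. Against PD1+ CD8 this is at least 27.8-fold, taking 3 counts as the floor, but against Tfh-like only at least 1.70-fold, and Th17 was next with 5.98 FPM against 9.12. At Havcr2, 8 of 23 tiles were higher and 0 lower. Whether these tiles act on Havcr2 or on a neighbouring gene cannot be read from the counts.

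Other loci held tiles in both directions. At Tcf7, 3 of 35 tiles were higher and 7 lower, and a tile at -42.2 kb was open in PD1+ CD4 cells (9.93 FPM against 1.001, 1.54, 7.13 and 0.765) although the gene as a whole was lower. At Il21, 4 of 22 were higher and 1 lower, with 18.6 FPM at -27.1 kb against 8.67, 6.95, 3.57 and 5.36. Th17 cells had 15.0 FPM there. At Cxcr6, a chemokine receptor of resident T cells, 5 of 25 were higher and 1 lower, and a tile at -40.2 kb, next to Ccr9, had 41 fragments (6.67 FPM) against 0, 0, 0 and 6, which is at least 6.67-fold, 2.88-fold and 1.25-fold higher than the first 3. IL10+ Treg had 6.97 FPM there. Cd4 and Lag3 are neighbours and share tiles, with 3 of 38 and 3 of 31 higher and 1 lower in each. Higher tiles were thus fewer than over the genome at Cd4, Lag3 and Tcf7 and near its share at Il21 and Cxcr6, while lower tiles at Tcf7 were above it.

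**Figure D3:**
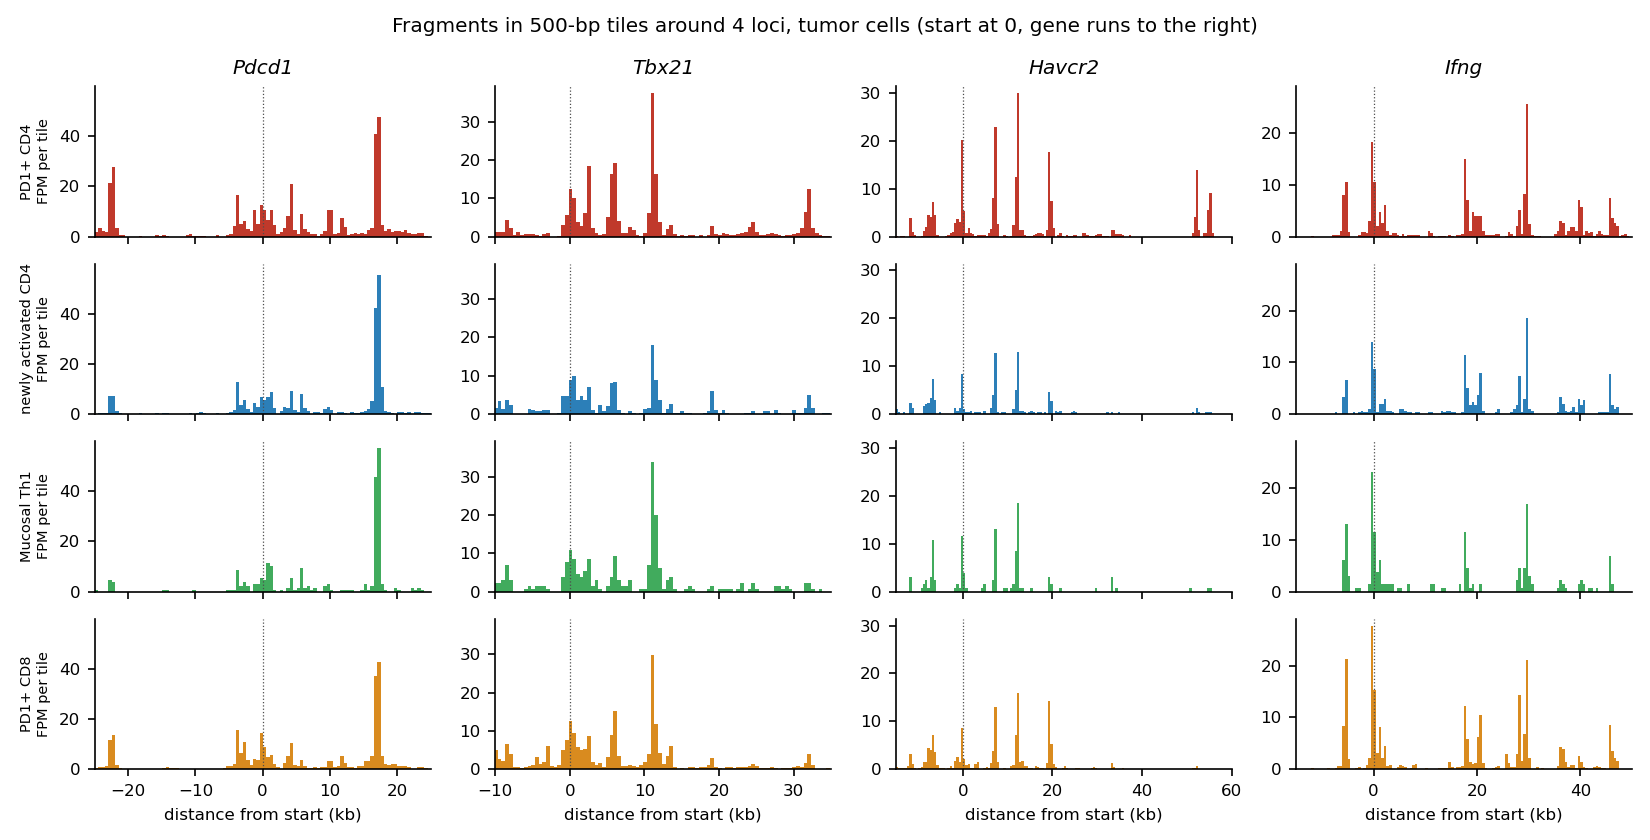
FPM in 500-bp tiles by distance from the start (kb, positive into the gene) at Pdcd1, Tbx21, Havcr2 and Ifng for 4 labels of the tumor. In PD1+ CD4 cells (top row) the Pdcd1 tile at -22.2 kb reaches 27.8 FPM, against 3.86 to 13.7 in the 3 labels beneath, and the Havcr2 tile at 52.3 kb reaches 14.0 FPM, against 0 to 1.33.

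Over the genome, 1213 of 52493 tiles (2.31%) with at least 30 fragments in PD1+ CD4 cells were past 4-fold higher in PD1+ CD4 cells than in newly activated CD4, Mucosal Th1 and PD1+ CD8. The 4-fold threshold was chosen after the data were seen. Just inside it the smallest log2 ratio was 2.00066, and just outside the largest was 1.9993. The set lay away from gene starts: 58 of the 1181 tiles on chromosomes with start positions were within 1 kb of a start (4.91%), against 44.8% of all tiles tested. Tiles of the set lay in a gene span in 52.2% of cases against 70.7%. The spans of 414 genes held at least 1, with 7 in Msi2, 6 in Col15a1 and 5 each in Celf2, Cx3cl1, Kcnk10, Nedd9, Pnkd, Rora, Septin9, Synpo2 and Zfp827.

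The tiles with the largest ratios had few fragments in the comparators. A tile between genes, 34.9 kb from Tmem150c (chr5:100200501-100201000), had 146 fragments in 114 PD1+ CD4 cells (18.5% of the cells). Newly activated CD4, Mucosal Th1 and Tfh-like had 0 fragments there, which makes it at least 23.7-fold, 10.3-fold and 4.44-fold higher with a floor of 3 counts, and PD1+ CD8 had 1. The next label was IL10- Treg with 7.23 FPM against 23.8. A tile on chromosome 17 (chr17:85888501-85889000, 95.7 kb from Srbd1) had 90 fragments in 69 PD1+ CD4 cells. There, the next label, Innate-like T#2, had 0.663 FPM against 14.7 in PD1+ CD4 cells. A tile 21.96 kb from Tnfsf11 (chr14:78330001-78330500) had 137 fragments (22.3 FPM) against 2, 1, 1 and 5 in the comparators, with IL10+ Treg next at 6.97 FPM. Within Usp48, a ubiquitin protease, the tile chr4:137648001-137648500 had 123 fragments (20.02 FPM) against 0, 0, 0 and 5, with Th2 next at 4.56 FPM. These tiles were chosen for their ratios, and the values describe them only.

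Labels that were not used to choose the tiles showed which other cells shared them. PD1+ CD4 cells had the highest FPM of all 17 labels at 953 of the 1213 tiles (78.6%), which the choice of the tiles largely fixes, and at 9.63% of all tiles tested. The next highest label was IL10- Treg at 331 tiles (27.3%), Th2 at 193 (15.9%), IL10+ Treg at 135 (11.1%), Th17 at 116 (9.56%) and Rorgt gdT at 114 (9.40%). Over all tiles tested these labels were the highest besides PD1+ CD4 at 4.13%, 15.4%, 5.88%, 3.99% and 5.16%, so that the share of Th2 was near its background. The choice of the tiles keeps newly activated CD4, Mucosal Th1 and PD1+ CD8 low, so part of the rise of other labels is set by it. To count without choosing tiles and measuring them in the same cells, the tumor cells were split into 2 parts, tiles were chosen in one part by the same rule with a minimum for the part, and fragments were counted in the other. PD1+ CD4 cells then had 13.2 fragments per 1000 in the tiles (13.1 to 13.3). Both parts are of 1 library, and the tiles were chosen as high in PD1+ CD4 cells, which largely sets this value. IL10- Treg followed with 6.22, IL10+ Treg with 4.56, Th17 with 4.04, Rorgt gdT with 4.04 and Th2 with 3.91, while Tfh-like had 2.52, newly activated CD4 and Mucosal Th1 1.47 each, PD1+ CD8 1.14 and CCR7+ CD4 0.738.

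The spread over single cells was taken in the part of the cells not used to choose the tiles. The 520 PD1+ CD4 cells with at least 2000 fragments had a median of 12.9 per 1000, with the 5th and 95th percentiles at 4.82 and 22.9. Newly activated CD4, Mucosal Th1 and PD1+ CD8 were used in choosing the tiles, so that their low values are largely set by the choice. Of labels not used in it, 456 of the PD1+ CD4 cells (87.7%) lay above the 95th percentile of Tfh-like and 274 (52.7%) above that of IL10- Treg. The tiles were chosen as high in PD1+ CD4 cells of the same library, so that these shares too are largely set by the choice. They describe the spread and are no test of separation. The value did not move with depth, at 13.2 in cells under the tumor median, 13.3 in cells between 1 and 3 medians and 13.1 in those above 3 medians.

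**Figure D4:**
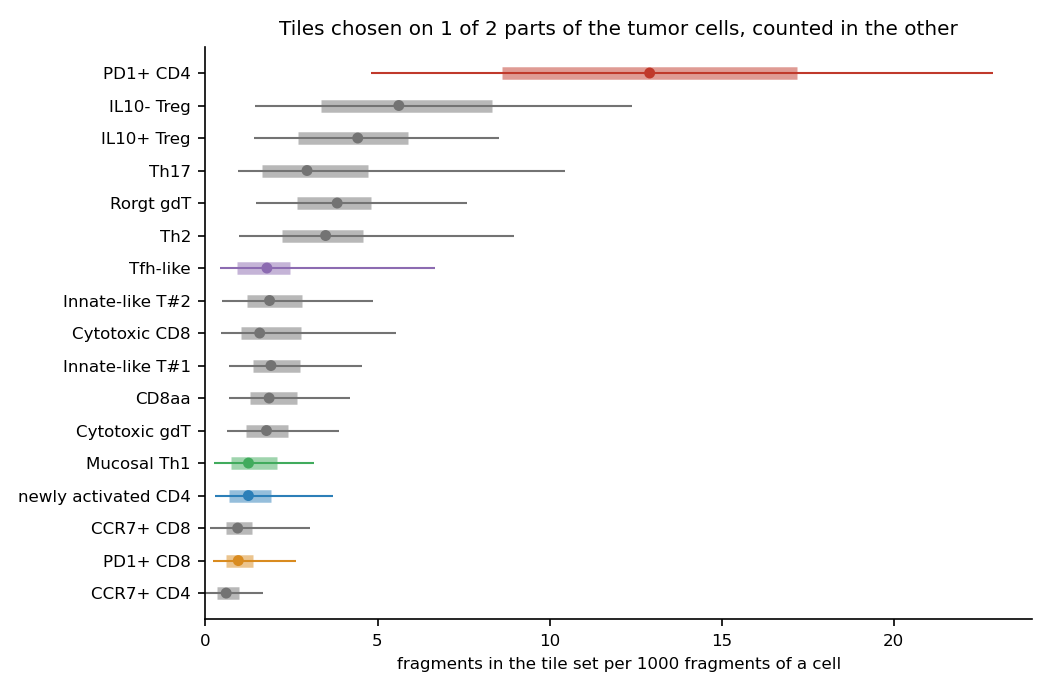
Fragments per 1000 of a cell in the tiles chosen in the other part of the tumor cells, by label, with points at the median over cells, thick bars over the middle quartiles and thin lines from the 5th to the 95th percentile. PD1+ CD4 cells have a median of 12.9 (5th to 95th percentile 4.82 to 22.9), and IL10- Treg, with 5.62 the next, overlap its lower part.

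Promoter motifs gave a limited view, as no genome sequence was used here for the tiles. Start windows were higher than in newly activated CD4, Mucosal Th1 and PD1+ CD8 by 1.5-fold for 215 of 11069 genes (1.94%). The 212 promoters of these windows held the AP-1 motif in 8.96% of cases (19 promoters), against 4.57% of the 11512 tested promoters and 7.81% of all 32851 RefSeq promoters. The GC box was in 50.9%, against 64.7% of tested and 35.7% of all promoters. The T-box motif was in 4.25% against 3.28% and 3.98%, Runx in 5.19% against 3.65% and 5.27%, NFAT in 19.3% against 19.8% and 23.4%, and the nuclear receptor site in 2.36% against 2.81% and 4.72%. These shares describe the letters of the promoters and were not tested.

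Most single PD1+ CD4 cells received their label from chromatin alone. Each tumor cell was given the label of highest likelihood over 50000 tiles, with profiles made from other cells. Of the 616 PD1+ CD4 cells, 560 received their own label (90.9%, 88.4 to 93.1), and 69 of the 7850 other cells (0.879%) received it too. The cells that went elsewhere were called IL10- Treg (18 cells), Cytotoxic CD8 (13), PD1+ CD8 (11), newly activated CD4 (7) and IL10+ Treg (4), and 0 were called Mucosal Th1 or Tfh-like. Of the cells drawn in from other labels, Th17 gave the most (23, or 7.85% of Th17 cells). Other labels received their own name in 78.2% of newly activated CD4, 94.5% of PD1+ CD8, 91.9% of IL10- Treg and 8.16% of Mucosal Th1 cells, and in 2.25% of the 89 Tfh-like cells. As few cells of Mucosal Th1 or Tfh-like received their own name, 0 calls to them do not show separation from these labels. Mucosal Th1 and Tfh-like held 1295529 and 560742 fragments, against 6143256 in PD1+ CD4, and the part of depth in these rates was not tested.

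Recovery rose with depth and held in shallow cells. Of PD1+ CD4 cells under 2000 fragments, 84.4% of 96 received their label, as did 83.7% of those with 2000 to 5000, 88.5% with 5000 to 10000, 96.2% with 10000 to 20000 and 96.5% with 20000 and over. With gene windows in place of tiles the share was 86.5%, and without the cells of high count 91.1%.

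**Figure D5:**
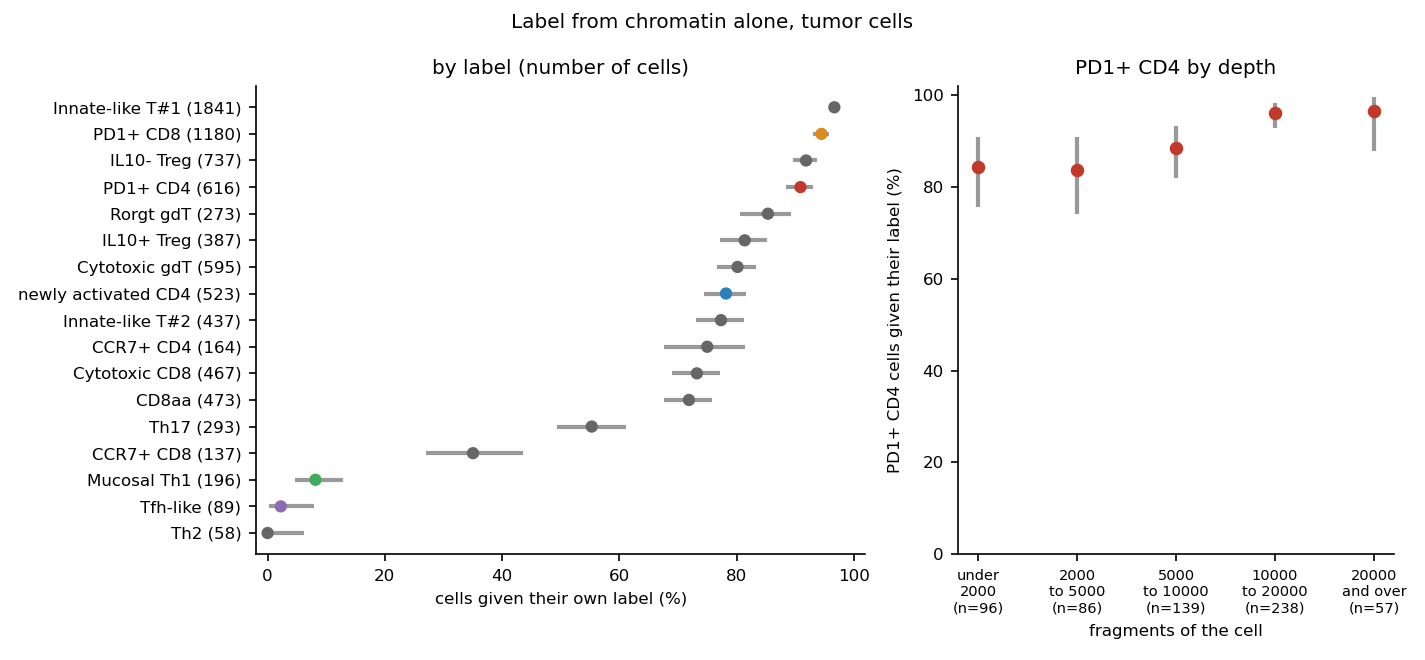
Left, percent of the cells of each tumor label that received their own label from chromatin, with exact 95% intervals and the number of cells in brackets. Right, the same for PD1+ CD4 cells by fragments per cell, from 84.4% under 2000 fragments to 96.5% at 20000 and over.

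Likeness between whole profiles placed PD1+ CD4 cells among several labels that could hardly be ordered. Labels were thinned to 438981 fragments, and Pearson's r of log2(FPM + 1) was taken across 13145 genes, which are not independent. It was 0.860 with Th17, 0.859 with IL10- Treg, 0.856 with Mucosal Th1, 0.855 with newly activated CD4, 0.854 with Cytotoxic CD8, 0.852 with Th2 and 0.848 with IL10+ Treg, then 0.841 with PD1+ CD8, 0.834 with Rorgt gdT and 0.828 with Tfh-like, and lowest of all 0.765 with CCR7+ CD4. Spearman's rho was 0.887 with Th17 and 0.884 with IL10- Treg. Over 50000 tiles r was 0.626 with IL10- Treg, 0.625 with IL10+ Treg and Th17, 0.617 with Th2, 0.608 with newly activated CD4, 0.605 with Rorgt gdT, 0.604 with Mucosal Th1 and, at rank 10, 0.567 with PD1+ CD8. In start windows IL10- Treg was first at 0.906 and Th17 had 0.902.

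The 14 PD1+ CD4 cells of the cecum, with 89136 fragments, carried part of the same pattern. Pdcd1 was at 303 FPM (200 to 441, 27 fragments) in them, against 61.3 to 196 in the 16 other cecum labels. Cx3cl1 was at 78.5 FPM (31.6 to 162, 7 fragments) against at most 29.7, and Kcnk10 at 89.8 (38.7 to 177, 8 fragments) against at most 56.7, both highest in IL10- Treg among the others. Fam20c had 1 fragment and Nr5a2 0, which allows up to 41.4 FPM. Genes low in the tumor cells were not all low in these. Klf3 was at 157 FPM (85.9 to 264) and Tcf7 at 224 (137 to 347), against medians of 149 and 179 over the other cecum labels, and both intervals lay above the 66.4 and 130 FPM of the tumor cells. Pde2a, at 44.9 FPM (12.2 to 115, 4 fragments), was under the 80.8 of the lowest other cecum label. Spsb4, Rab39, Gm11541 and Lair1 had 0 fragments, which allows up to 41.4 FPM. In the tile set they had 10.3 fragments per 1000 (9.69 to 11.03), against 4.42 in IL10- Treg, 1.14 in Mucosal Th1 and 1.11 in newly activated CD4 cells of the cecum. With the profiles of the tumor labels 8 of the 14 were called PD1+ CD4, as were 34 of the 7141 other labelled cecum cells. These values rest on few cells and 1 library.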

How the data were processed

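Fragment files of 1 tumor and 1 cecum ATAC library were used with the label of each cell. The authors made them with Cell Ranger ARC 2.0.0 on mm10 and deposited raw fragments, each a count of 1 unique fragment with a count of its read pairs, neither normalized nor filtered. Duplicates are already merged in them. Labels came from the authors' clusters of the RNA, with ATAC filters on fragments and start enrichment. RNA counts were not analysed here.

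Here each fragment with an end in a window added 1 to it. Gene spans (21888 genes, RefSeq GRCm38.p6, the build of mm10) with 5 kb either side and tiles of 500 bp were scaled to FPM. Ratios across genes used a pseudocount of 1 FPM and at least 50 fragments, which understates changes of low genes, and tile ratios used counts with exact conditional intervals. Windows of neighbouring genes can overlap. With 1 library per tissue no test was run. Assignment used 5 parts of the cells and a pseudocount of 0.5. Starts came from RefSeq promoters, which hold 17492 of the genes, and both gene ends were used for the others. Zfp683, Mx1 and Mx2 of the lists were not used here, and some items are not reported here.

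The genes named were the 4 markers and lineage genes, list members past 1.5-fold against newly activated CD4, Mucosal Th1 and PD1+ CD8, the 10 highest and 10 lowest by the smallest of these ratios, and 3 tiles per locus and 10 over the genome. Further genes and the tallest tiles were named after their values were seen. Cells, lists and comparisons were chosen with earlier results of these data known. Counting was checked on simulated fragments. Software was scipy 1.17.1, pandas 2.3.3, numba 0.67.0, numpy 2.4.6 and matplotlib 3.10.9 under Python 3.11.15.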

Additional observations from a re-analysis of the deposited data

How the results depend on the processing

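Of 1504 recomputed values, 1077 stayed within a set limit, 423 moved further and 4 that were past 1.5-fold turned sign. The limit was the counting interval for shares, 1.5-fold for counts of genes and an unchanged rank for the r with Th17. For list medians it came from the interval of the summed fragments. For tiles it came from the narrowest interval against the ranking labels, with a log2 of 1 in place of an open interval. A further 61 values under 1.5-fold changed sign, 22 of them in windows at starts and 14 under scaling by fragments near starts. Using cells with at least 1000 fragments moved 0 of 234 values. For the share of thinned cells this setting cannot differ, since 2000 fragments were needed, and it was not run. No paired analysis was possible because each tissue had 1 library. The libraries limit the results to counting error, and labels of few cells (Tfh-like, Th2) have wide intervals.

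Windows within 1 kb of the start (of either gene end for Tox) turned Tox to -0.14 against newly activated CD4 and -0.22 against Mucosal Th1, Acot12 to -0.068 against PD1+ CD8 and the type 2 median to -0.032 against Tfh-like. The Acot12 value rests on 1 fragment (0.163 FPM) in PD1+ CD4 cells. The start windows gave 526, 638, 899 and 607 higher genes (newly activated CD4, Mucosal Th1, Tfh-like, PD1+ CD8) and 549 lower ones against PD1+ CD8. Scaling by fragments near starts gave 2120 higher genes against newly activated CD4 and 271, 312 and 542 lower ones against newly activated CD4, Mucosal Th1 and Tfh-like, and the mean over cells 1042, 1234 and 1924 lower ones. A pseudocount of 5 FPM gave 372, 391 and 623 lower genes against newly activated CD4, Mucosal Th1 and PD1+ CD8. With at least 200 fragments there were 692 higher and 301 lower, 612 and 254, 886 and 653, and 704 and 597. With no minimum there were 2066 and 1255, 2391 and 1911, and 3715 and 2206 against the CD4 labels. These last 2 settings test fewer or more genes, and the cause of the other moves was not tested.

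The type 1 median against newly activated CD4 was 0.37 without cells of high count, 0.25 at starts, 0.64 under scaling by starts, 0.34 as a mean over cells and 0.37 with at least 200 fragments. Against PD1+ CD8 it was -0.13, -0.14, -0.10 and -0.13 under the first 4. The median of inhibitory receptors against newly activated CD4 was 0.13 at starts, 0.47 under scaling by starts and 0.37 as a mean over cells, and against PD1+ CD8 0.29 without cells of high count, 0.16 at starts and 0.31 under scaling by starts. The share of PD1+ CD4 cells was 6.64% in the tumor without cells of high count, and 20.1% (tumor) and 0.456% (cecum) of CD4 labels. Assignment over gene windows gave 86.5%. Without thinning, Pdcd1 was found in 71.4% of cells. The r with Th17 was 0.902 at starts and 0.936 without thinning.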
